A study of Drosophila melanogaster with 6 samples.

Results

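The genes described here code for the machinery of nonsense-mediated decay (NMD) and for the exon junction complex. They were taken by symbol from the deposited gene counts, by the role of their proteins: Upf1, Upf2, Upf3, Smg1, Smg5 and Smg6 act in NMD, and tsu, mago and btz code for exon junction proteins. All 9 were found among the 17868 listed genes, Smg1 under its other symbol nonC, and all 9 passed the filter on low counts that left 8708 genes for testing. RNA was sequenced from clock neurons of adult Drosophila melanogaster brains at zeitgeber time (ZT) 14, in the early dark phase, after flies had spent 5 days under 12 h of light and 12 h of dark. The Prp3-RNAi flies carried the second chromosome with Clk-GAL4 and UAS-GFP-NLS over one with UAS-Prp3-RNAi, a hairpin against the spliceosome gene Prp3. The control flies carried the same driver and marker chromosome over a plain one (+), without a hairpin against another target. Each group has 3 libraries of about 2000 sorted cells, and the titles of the control libraries name the Prp3-RNAi library that each belongs with. Clk-GAL4 drives expression in clock neurons, which were sorted by the green fluorescent protein and by absence of the dead-cell dye DAPI. The age and sex of the flies, and whether libraries came from separate flies, are not given in the sources used here. P-values therefore measure only the spread between these libraries, which in tests that use the pairs is that of the differences within pairs. The second chromosome differs between the groups by design, and its effect on the genes it carries cannot be told apart from that of the hairpin.

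NMD removes messenger RNAs whose reading frame ends too early, among them many products of faulty splicing. The helicase Upf1 gathers on a terminating ribosome's transcript, Upf2 and Upf3 join it, the kinase Smg1 phosphorylates it, and Smg5 and Smg6 bind the phosphorylated form, Smg6 cutting the RNA. The spliceosome leaves an exon junction complex upstream of the junctions between joined exons. Its core holds the helicase eIF4AIII, clamped on RNA by the dimer of Mago and Tsu (Y14), together with Btz (Barentsz). In mammals this complex marks premature stops for NMD, whereas in flies NMD works largely without it, and the fly complex is known for placing oskar mRNA in the oocyte and for accurate splicing of genes with long introns.

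The libraries held 24477244 to 32551739 gene counts. The 9 genes together took 0.0348% to 0.0456% of them, and a single gene had 61 to 4448 counts in a library. Levels are given in CPM, which are counts per library scaled to one total. The 7 clock neuron markers were all present, with tim at 566, 631 and 663 CPM in Prp3-RNAi libraries 1 to 3 and at 830, 731 and 557 CPM in control libraries 1 to 3. Of these markers 5 had a log2 fold change below 0 and 2, per and Clk, one above 0. The gene of the light receptor cryptochrome, cry, stood at 81.1 to 90.9 CPM in Prp3-RNAi and 105.3 to 222.5 CPM in control. The neuropeptide gene Pdf varied most, at 302, 155 and 19961 CPM in Prp3-RNAi libraries 1 to 3 and 15942, 2566 and 17385 CPM in control libraries 1 to 3, so pairs 1 and 2 stood apart from pair 3. The 7 glia markers summed to 192 to 395 CPM in Prp3-RNAi and 171 to 572 CPM in control. Most of these sums came from Gs2, at 93.4 to 257 CPM in Prp3-RNAi and 61.2 to 502 CPM in control, and Eaat1, at 74.3 to 85.7 and 27.2 to 98.3 CPM. The defining glia factor repo was at 0.366, 0.571 and 0.514 CPM in Prp3-RNAi libraries 1 to 3. In control libraries 1 to 3 it was at 0, 0.141 and 1.56 CPM. Of the 7 glia markers 4 had a log2 fold change above 0 and 3 one below 0, with a median of 0.43. Among them alrm and Indy were higher in Prp3-RNAi in all 3 pairs. In edgeR's test 0 of the 7 had an unadjusted p-value under 0.05. The 7 photoreceptor markers summed to 6.92 to 43.9 CPM in Prp3-RNAi and 6.72 to 58.5 CPM in control; ninaE carried the highest sums, while ninaC was at 1.999 to 7.54 CPM in Prp3-RNAi and 0.0313 to 0.217 CPM in control, without overlap. Markers of fat body and blood summed to 0.0332 to 1.81 CPM in Prp3-RNAi and 0.251 to 56.0 CPM in control. The highest sum was that of control library 3, where Hml stood at 45.9 CPM, against 0.188 and 0.0354 CPM in control libraries 1 and 2. Muscle markers summed to 0.133 to 0.411 CPM in Prp3-RNAi and 0.424 to 2.69 CPM in control. Lsp2 and Act88F were at 0 in all 6 libraries. The part of these markers' cells in the results below was not tested. In sorted bulk samples, fewer cells of a type and less RNA per cell cannot be told apart.

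The targeted gene was read first. Prp3 stood at 27.0, 28.3 and 10.8 CPM in Prp3-RNAi libraries 1 to 3 and at 45.6, 68.8 and 29.4 CPM in control libraries 1 to 3. The groups did not overlap. Its log2 fold change, Prp3-RNAi over control, was -1.16 (SE 0.24). With the pair as a block, edgeR's quasi-likelihood test gave an adjusted p-value of 0.384, which did not pass the 0.05 threshold. DESeq2 called it, with an adjusted p-value of 0.00849.

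Across the 9 NMD and exon junction genes, 0 were called in edgeR's test, and so were 0 of all 8708 tested genes (0%). At an unadjusted p-value under 0.05 there was 1 of the 9, Smg5, beside 869 of all tested genes (9.98%). Smg5 was lower in Prp3-RNAi, as were 5.27% of all tested genes at that level, and none of the 9 was higher at that level, beside 4.71% of all tested genes. The 2 groups overlapped for all 9 genes, whereas they did not overlap for 11.6% of all tested genes. The fold change was above 0 for 5 genes and below 0 for 4, with a median of 0.13 on the log2 scale against 0.01 over all tested genes. DESeq2 also called 0 of the 9, beside 380 of 8370 genes with an adjusted p-value (4.54%). The sign was the same in all 3 pairs for 5 of the 9, beside 35.1% of all tested genes. Upf2, Smg6 and tsu were higher in Prp3-RNAi in every pair (17.5% of tested genes), and Upf1 and Smg5 were lower in every pair (17.6%).

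**Figure D1:**
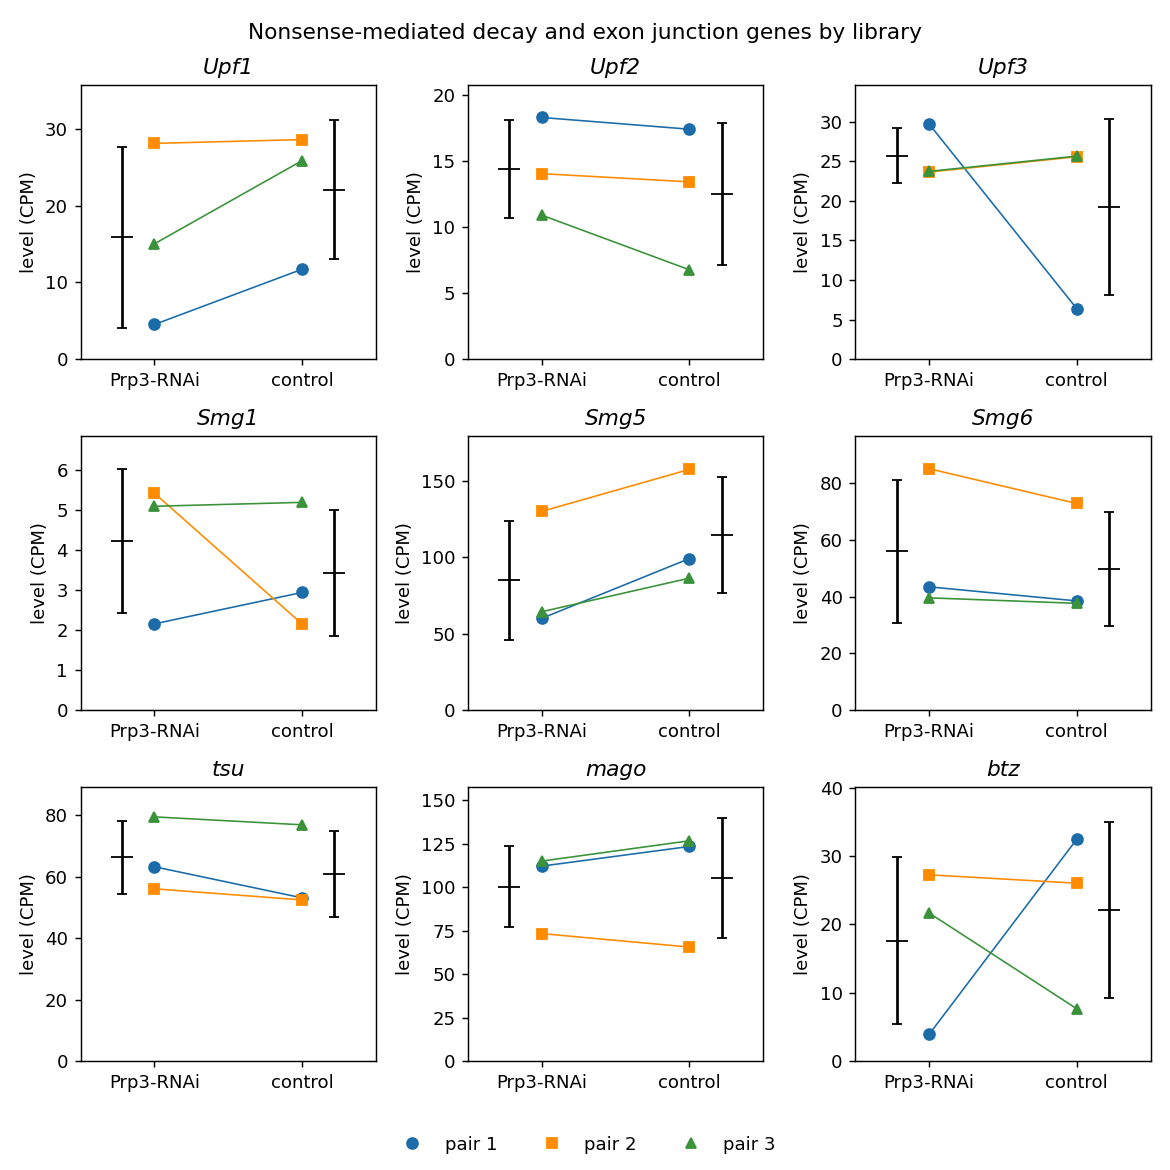
Level in CPM (counts per library scaled to one total, linear axes that start at 0) of each of the 9 genes in each library, Prp3-RNAi left of control; lines join the libraries of a pair, and black marks are the group mean and SD (n = 3). The groups overlap in all 9 panels. Upf3 and Smg1 each have 1 pair that stands far from the other pairs, and for btz pairs 1 and 3 differ in opposite directions.

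Levels of different genes were compared per kilobase of annotated exon. The Mago and Tsu dimer stood at the top. mago had 101.6, 66.4 and 104.2 CPM per kb in Prp3-RNAi libraries 1 to 3 and 111.8, 59.4 and 114.8 CPM per kb in control libraries 1 to 3. tsu had 91.6, 81.2 and 115.1 CPM per kb in Prp3-RNAi libraries 1 to 3 and 76.9, 76.0 and 111.4 CPM per kb in control libraries 1 to 3. In these counts mago lay above tsu in 3 of 6 libraries. With reads in stretches shared with the other strand counted too, which are a larger share for tsu, tsu lay above mago in 5 of 6 libraries. In the counts used, each lay above 87% of the 8256 tested genes with a length (87.7% for mago and 87.5% for tsu).

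The factors that bind phosphorylated Upf1 followed at a lower level. Smg5 averaged 16.6 ± 7.69 CPM per kb in Prp3-RNAi and 22.4 ± 7.43 CPM per kb in control (SD, n = 3 each). Smg6 averaged 16.9 ± 7.62 CPM per kb in Prp3-RNAi and 15.004 ± 6.06 CPM per kb in control. Smg5 was above Smg6 in 4 of 6 libraries, and tsu was above Smg5 in 6 of 6. Upf3 came next, with 14.2 ± 1.92 CPM per kb in Prp3-RNAi and 10.6 ± 6.13 CPM per kb in control, and lay below Smg6 in 3 of 6 libraries. Neighbours in this middle part of the order did not differ beyond their spread.

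The genes btz, Upf1 and Upf2 were lower still. btz averaged 5.71 ± 3.95 CPM per kb in Prp3-RNAi and 7.15 ± 4.17 CPM per kb in control, and lay below Upf3 in 5 of 6 libraries. Upf1 averaged 3.06 ± 2.28 CPM per kb in Prp3-RNAi and 4.25 ± 1.75 CPM per kb in control, and Upf2 2.84 ± 0.730 CPM per kb in Prp3-RNAi and 2.47 ± 1.06 CPM per kb in control. btz was above Upf1 in 5 of 6 libraries and Upf1 above Upf2 in 4 of 6. Smg1, a large kinase in the family of phosphatidylinositol kinase-related proteins, was at the bottom in all 6 libraries, with 0.398 ± 0.169 CPM per kb in Prp3-RNAi and 0.323 ± 0.149 CPM per kb in control. Only 3.14% of the tested genes with a length had a lower mean level per kb than Smg1.

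**Figure D2:**
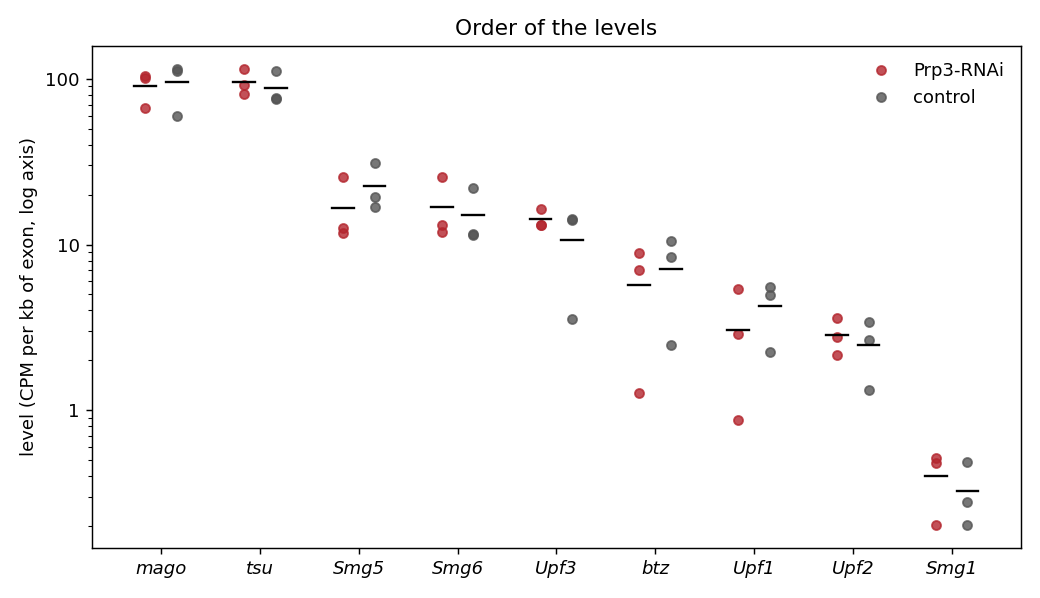
Level per kilobase of annotated exon (CPM per kb, log axis) of the 9 genes, ordered by their mean over the 6 libraries; points are libraries, Prp3-RNAi in red left of control in grey, and bars are group means (n = 3). mago and tsu share the top near 90 CPM per kb and Smg1 lies alone at the bottom under 1 CPM per kb, in both groups.

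Among the NMD factors, Smg5 had the smallest p-value. Smg5 (FBgn0019890, chromosome 2L, 13898828 to 13904661, minus strand) has 5 introns. It stood at 60.0, 129.9 and 64.3 CPM in Prp3-RNAi libraries 1 to 3 and at 99.1, 157.3 and 86.3 CPM in control libraries 1 to 3. Each Prp3-RNAi library was below its partner, with log2 differences of -0.72, -0.28 and -0.42, but Prp3-RNAi library 2 lay above control libraries 1 and 3. Fitted over the pairs, the log2 fold change was -0.47 (SE 0.15, 95% interval -0.84 to -0.10), or 72.0% of control. In edgeR's test its p-value was 0.0211 unadjusted and 0.445 adjusted. Without the block the unadjusted p-value was 0.268. It was 0.0678 without pair 1 and 0.0506 without pair 2 in the same edgeR test. DESeq2 put the log2 fold change at -0.49 and its adjusted p-value at 0.136.

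Smg6 (FBgn0039260, chromosome 3R, 25029429 to 25033465, minus strand), the endonuclease of the pathway and the member with the most introns (9), leaned the other way by a small amount. It had 43.5, 85.1 and 39.6 CPM in Prp3-RNAi libraries 1 to 3 and 38.5, 72.8 and 37.7 CPM in control libraries 1 to 3. Both libraries of pair 2 were high, as they were for Smg5, and each Prp3-RNAi library was above its partner, by 0.17, 0.22 and 0.07 on the log2 scale. The fit gave a log2 fold change of 0.16 (SE 0.16, 95% interval -0.24 to 0.55; edgeR adjusted p-value 0.789), so a difference of either sign within those bounds could not be told from none. Among the 9 genes, Smg5 and Smg6 were each other's nearest neighbour in pattern over the 6 libraries, with a root mean square difference of 0.331 between their centred log2 CPM.

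Upf1 (FBgn0030354, chromosome X, 11899996 to 11905371, minus strand), the helicase on which the other factors act, was lower in all 3 pairs with a wide error. It had 4.52, 28.1 and 15.03 CPM in Prp3-RNAi libraries 1 to 3 and 11.7, 28.6 and 25.9 CPM in control libraries 1 to 3. Both libraries of pair 2 were at one level, and Prp3-RNAi library 1, with 136 counts, was the lowest. On the log2 scale the fitted difference was -0.72 (SE 0.39, 95% interval -1.71 to 0.26; edgeR adjusted p-value 0.602). The value rests in part on pair 1 and on the block: it was -0.39 without pair 1 and -0.47 without the block. The tested genes nearest to Upf1 in pattern over the 6 libraries were Usp20-33, CG12061 and PIG-O. Their root mean square differences were 0.280, 0.299 and 0.300 in centred log2 CPM. CG12061 had a mean of only 0.298 CPM, so its pattern rests on few counts.

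Upf2 (FBgn0029992, chromosome X, 8070244 to 8075466, minus strand), which links Upf1 to Upf3, differed little in pairs 1 and 2. It had 18.3, 14.03 and 10.9 CPM in Prp3-RNAi libraries 1 to 3 and 17.4, 13.4 and 6.76 CPM in control libraries 1 to 3. The order of the pairs was the same in both groups, and pair 3 was lowest in each. Its log2 fold change was 0.27 (SE 0.40, 95% interval -0.73 to 1.28; edgeR adjusted p-value 0.870). Without pair 3, where the log2 difference was 0.68, it was 0.07.

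Upf3 (FBgn0034923, chromosome 2R, 23893066 to 23894987, minus strand), the link between Upf2 and the exon junction complex, was decided by 1 library. It had 29.7, 23.6 and 23.7 CPM in Prp3-RNAi libraries 1 to 3 and 6.39, 25.6 and 25.7 CPM in control libraries 1 to 3. Control library 1 was low and the other 5 libraries lay between 23.6 and 29.7 CPM. The log2 fold change of 0.62 (SE 0.57; edgeR adjusted p-value 0.768) turned to -0.10 without pair 1. Exons of Upf3 overlap those of DNAlig1 on the other strand over 112 bases. Of the reads on Upf3 exons, 12.5% to 26.4% per library fell in stretches shared with a gene on the other strand and are not in these counts.

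Smg1 (FBgn0263968, chromosome X, 6824496 to 6838122, plus strand) was near the limit of what these libraries resolve. It had 65, 171 and 149 counts in Prp3-RNAi libraries 1 to 3 and 94, 61 and 120 counts in control libraries 1 to 3, or 2.16 to 5.43 CPM in Prp3-RNAi and 2.16 to 5.20 CPM in control. The ranges nearly coincided. The fitted log2 fold change, 0.28 (SE 0.90, 95% interval -2.01 to 2.56; edgeR adjusted p-value 0.946), turned to -0.23 without pair 2. If reads were independent molecules, counting alone would give a coefficient of variation of 12.8% at the lowest of these counts. The coefficient was 42.6% between the Prp3-RNAi libraries and 46.0% between the control libraries. Reads from low-input amplification are not independent, so 12.8% is a lower bound. The part of this spread that comes from sampling few molecules was not tested.

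**Figure D3:**
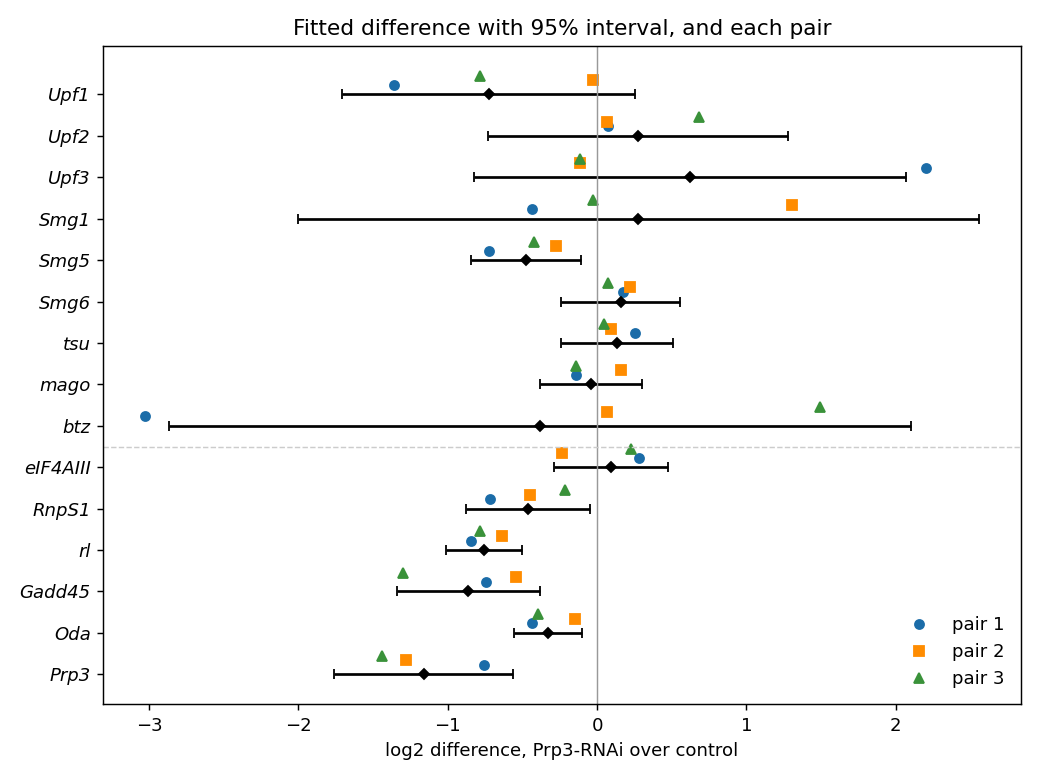
Log2 difference, Prp3-RNAi over control, of the 9 genes (above the dashed line) and of 6 further genes; diamonds are the fitted values with 95% intervals and coloured points the 3 pairs. Among the 9, the interval of Smg5 alone does not reach 0; those of Upf3, Smg1 and btz are the widest.

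The exon junction genes showed the smallest and the largest errors of the set. tsu (FBgn0033378, chromosome 2R, 9110799 to 9111578, plus strand) had 63.3, 56.1 and 79.5 CPM in Prp3-RNAi libraries 1 to 3 and 53.2, 52.5 and 77.0 CPM in control libraries 1 to 3. Library 3 was the highest in each group, and each Prp3-RNAi library was slightly above its partner. This came to a log2 fold change of 0.13 (SE 0.15, 95% interval -0.24 to 0.51; edgeR adjusted p-value 0.819). Of the reads on tsu exons, 23.7% to 29.8% per library lay in stretches shared with the other strand, where the annotation has 74 bases of Mys45A. With those reads counted, the log2 fold change was 0.11.

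The partner gene mago (FBgn0002736, chromosome 2R, 21128577 to 21129737, plus strand) did not differ in the direction of tsu in every pair. It had 112.0, 73.3 and 114.9 CPM in Prp3-RNAi libraries 1 to 3 and 123.3, 65.5 and 126.6 CPM in control libraries 1 to 3. Library 2 was lowest in each group. At -0.04 (SE 0.13, 95% interval -0.38 to 0.30; edgeR adjusted p-value 0.948), its log2 fold change was the closest to 0 of the 9 genes, and its sign turned without pair 1 (0.022) and without pair 3 (0.012). Its exons overlap those of Magi on the other strand over 275 bases.

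Because the proteins work as a dimer, the ratio of tsu to mago CPM was taken in each library. Its log2 value was -0.82, -0.39 and -0.53 in Prp3-RNAi libraries 1 to 3 and -1.21, -0.32 and -0.72 in control libraries 1 to 3, with a mean of -0.58 ± 0.22 in Prp3-RNAi and -0.75 ± 0.45 in control (SD, n = 3 each). The difference of 0.17 had an exact two-sided permutation p-value of 0.7, where 0.1 is the smallest that 3 against 3 allow. That test did not use the pairs. Within pairs, the ratio was higher in Prp3-RNAi in 2 of 3. Among the 9, tsu and mago were nearest to each other in pattern, with a root mean square difference of 0.301 in centred log2 CPM. This was not particular to the dimer, since tsu was also the nearest of the 9 to Smg1, at 0.479, and to Upf3, at 0.684. Over all tested genes the nearest to tsu were EMC4, a subunit of the membrane protein insertion complex of the endoplasmic reticulum, at 0.0325, the ribosomal protein gene RpL32 at 0.0403 and CG33977 at 0.0465.

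The gene btz (FBgn0045862, chromosome 3R, 27700361 to 27703445, plus strand) varied most. It had 3.92, 27.3 and 21.7 CPM in Prp3-RNAi libraries 1 to 3 and 32.5, 26.0 and 7.67 CPM in control libraries 1 to 3. One library in each group was low, Prp3-RNAi library 1 and control library 3, so the pairs differed by -3.03, 0.07 and 1.49 on the log2 scale. The resulting log2 fold change of -0.38 (SE 0.98, 95% interval -2.87 to 2.10; edgeR adjusted p-value 0.928) turned to 0.79 without pair 1. The spread of log2 CPM within groups was 1.33 for btz (pooled SD), larger than for 82.6% of all tested genes, and 0.29 for tsu, larger than for 26.2%.

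The 95% interval reached beyond a doubling or a halving (1 on the log2 scale) for 5 of the 9 genes, Upf1, Upf2, Upf3, Smg1 and btz. These are the genes with the lowest CPM of the set. For Smg5, Smg6, tsu and mago it stayed within those bounds.

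The other exon junction proteins were read from a list of 10 genes, all tested. In edgeR's test 0 were called and 1 had an unadjusted p-value under 0.05, or 10% beside 9.98% of all tested genes. The median log2 fold change was -0.15, with 3 higher and 7 lower. The helicase eIF4AIII, listed in the files as CG7483, had 145.8, 91.3 and 131.8 CPM in Prp3-RNAi libraries 1 to 3 and 119.7, 107.2 and 112.4 CPM in control libraries 1 to 3. Per kb of exon, eIF4AIII was close to mago and tsu and far above btz, with 83.0 ± 19.1 CPM per kb in Prp3-RNAi and 76.4 ± 4.22 CPM per kb in control (SD, n = 3 each). Its log2 fold change was 0.09 (SE 0.15, 95% interval -0.29 to 0.48; edgeR adjusted p-value 0.883).

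RnpS1, an outer exon junction protein that in flies helps the splicing of piwi, was the 1 gene of that list past the unadjusted level. It had 59.5, 52.7 and 61.7 CPM in Prp3-RNAi libraries 1 to 3 and 98.0, 72.1 and 71.8 CPM in control libraries 1 to 3. Every Prp3-RNAi library was below every control library. Its log2 fold change was -0.46 (SE 0.16), and edgeR's test put the p-value at 0.0354 unadjusted and 0.471 adjusted. The groups did not overlap for 2 of the 10 genes, beside 11.6% of all tested genes. The other was Pym, on 2R, which was higher in Prp3-RNAi, at 30.4 to 34.2 CPM against 19.6 to 25.3 CPM in control. Pym had the highest log2 fold change of the list, 0.52 (SE 0.25), with an unadjusted p-value of 0.0850 in edgeR's test.

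Tests of 30 other decay factors, among them the release factors eRF1 and eRF3, the decapping and deadenylation enzymes, the exosome and the chaperone helicases pont and rept, gave 0 called genes in edgeR's test. None of the 30 had an unadjusted p-value under 0.05, where 9.98% of all tested genes did. The median log2 fold change was 0.00, with 15 higher and 15 lower, in a range of -1.21 to 0.66. The low end was tst (SE 1.44), which had 8 counts in Prp3-RNAi library 1. Of the reads on tst exons, 76.8% to 99.5% per library fell in shared stretches and are not in these counts. The groups did not overlap for 2 of the 30, Rrp4 and rept, both higher in Prp3-RNAi, beside 11.6% of all tested genes. The summed level of the list was 3123 to 3335 CPM in Prp3-RNAi and 2973 to 3306 CPM in control.

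Genes that depend on these machineries were read last. The gene rl, which codes for the MAP kinase ERK, spans long introns (up to 25405 bases here), and in fly cells its transcripts are mis-spliced when the exon junction complex is depleted. It had 270.6, 205.6 and 313.5 CPM in Prp3-RNAi libraries 1 to 3 and 486.6, 320.4 and 540.4 CPM in control libraries 1 to 3. All Prp3-RNAi libraries lay below all control libraries, and the pairs differed by -0.85, -0.64 and -0.79 on the log2 scale. Over the pairs rl had a log2 fold change of -0.76 (SE 0.10, 95% interval -1.01 to -0.50), or 59.2% of control. edgeR's test did not call it, at a p-value of 0.000521 unadjusted and 0.252 adjusted, and DESeq2 did, at an adjusted p-value of 6.14e-10. The sign held in all 10 alternatives, from -0.81 to -0.70. The counts do not resolve exons, so whether rl was spliced differently was not analysed here. The other gene of this short list, piwi, was near silent, at 1.48 CPM in Prp3-RNAi and 2.54 CPM in control on average, with a log2 fold change of -1.33 (SE 1.25).

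**Figure D4:**
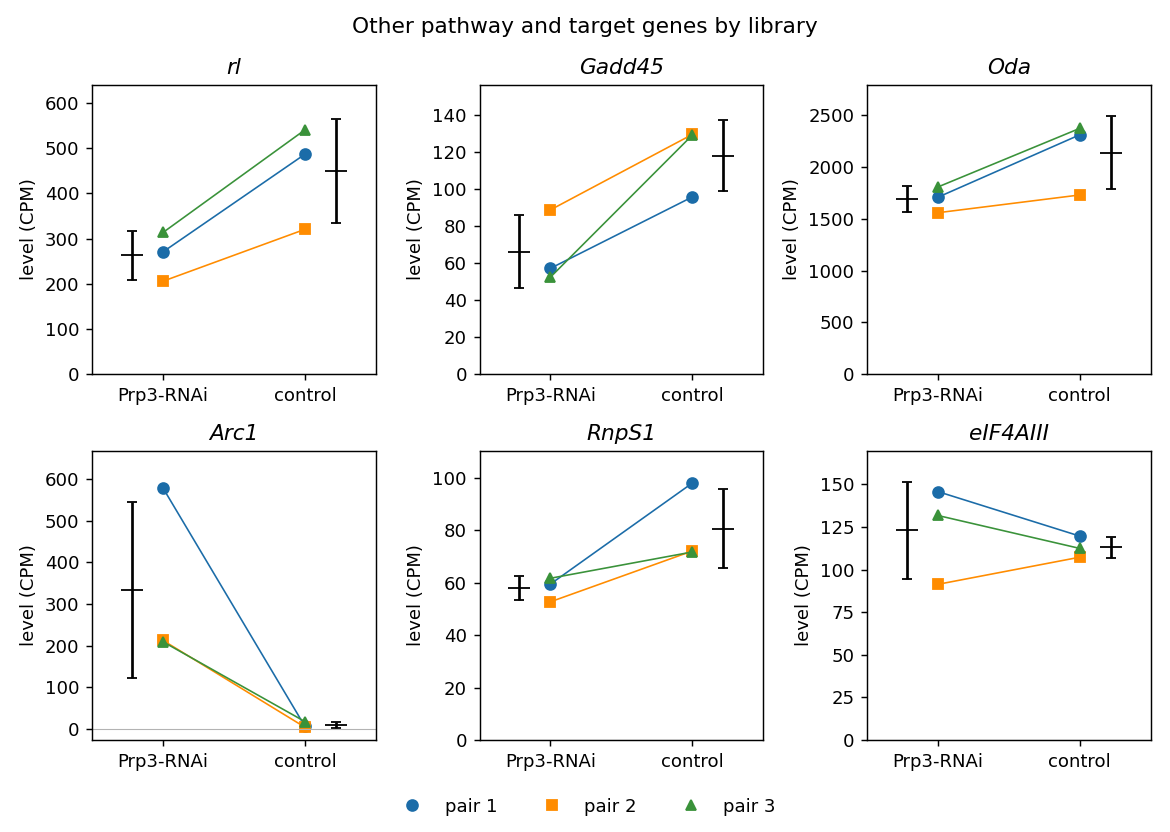
Level in CPM (linear axes) of 6 further genes in each library, Prp3-RNAi left of control; lines join the libraries of a pair, and black marks are the group mean and SD (n = 3). rl, Gadd45 and RnpS1 are lower in every Prp3-RNAi library than in any control library, Arc1 is higher in every one, and the groups overlap for Oda and eIF4AIII.

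Transcripts known as NMD substrates in flies had fold changes of both signs, with 0 of 3 called in edgeR's test. All 3 had an unadjusted p-value under 0.05 in that test, a level that 9.98% of all tested genes reached. These 3 were chosen with earlier results of these data known, so their share cannot be read as a test against all genes. Gadd45, a stress gene whose transcript accumulates in fly NMD mutants, had 57.2, 88.8 and 52.4 CPM in Prp3-RNAi libraries 1 to 3 and 95.8, 129.6 and 129.2 CPM in control libraries 1 to 3. The groups did not overlap. Its log2 fold change was -0.86 (SE 0.19, 95% interval -1.34 to -0.38; edgeR adjusted p-value 0.405), and DESeq2 called it (adjusted p-value 0.00648). Oda, which codes for the antizyme that limits polyamine synthesis, averaged 1691 ± 125 CPM in Prp3-RNAi and 2138 ± 355 CPM in control (SD, n = 3 each), which is -0.33 on the log2 scale (SE 0.09; adjusted p-value 0.428 in edgeR and 0.00396 in DESeq2). Its groups overlapped, since control library 2, at 1730 CPM, lay below Prp3-RNAi library 3, at 1807 CPM.

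Arc1, a neuronal gene of a capsid-forming protein, differed most of all genes named here. It had 578.5, 212.2 and 209.0 CPM in Prp3-RNAi libraries 1 to 3 and 5.80, 3.68 and 17.2 CPM in control libraries 1 to 3. Each Prp3-RNAi library was above every control library by a wide margin. The fitted difference was 5.37 on the log2 scale (SE 0.69; adjusted p-value 0.221 in edgeR and 8.63e-09 in DESeq2). Gadd45, Oda, Arc1 and rl lie on 2R and piwi on 2L, the arms of the chromosome by which the groups differ. Among the 9, Smg5 lies on 2L and Upf3, tsu and mago on 2R. Gadd45 and Arc1 have no annotated intron.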

How the data were processed

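The deposited files hold whole-number read counts per gene for 6 libraries. Per the submitters' processing notes the authors used Trim Galore 0.6.7, STAR 2.7.0a and the build dm6; the annotation is not given in the sources used here. No value had been normalized. Counts of both strands together were used, because the strand columns shared the reads evenly (50.0% to 50.1% in the first). Reads outside single genes (18.5% to 24.4% of a library) were left out. The 95% intervals come from the fit with the pair as a block, so they reflect the spread of the differences within pairs. Without molecular identifiers, reads from low-input amplification are not independent molecules.

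Genes were kept by filterByExpr (min.count 10, min.total.count 15) and tested with edgeR 4.0.16 (glmQLFit and glmQLFTest, two-sided, TMM scaling, R 4.3.3), with the pair as a block. P-values were adjusted over all 8708 genes (Benjamini-Hochberg), and a call needed one under 0.05. Standard errors are the log2 fold change over the square root of F, and CPM are TMM-scaled; log2 CPM used a prior count of 2. The common biological coefficient of variation was 58.3%. The titles state the pairs but not what a pair shares. Deviations from group means correlated at 0.046, 0.266 and 0.236 between libraries of pairs 1, 2 and 3. Between libraries of different pairs the correlations ran from -0.252 to 0.020, so that of pair 1 was little above the highest of these. Alternatives were DESeq2 1.42.0, limma-voom 3.58.1, RLE scaling, a filter of 1 count in all or of 50 counts in 3 libraries, the summed strand columns, no block, and leaving out each pair. The edgeR step was tested on simulated data. Coordinates, introns and exonic lengths are from Ensembl release 115 (BDGP6.54, dm6 coordinates); symbols of 5 listed genes were matched through RefSeq synonyms. A script computed the share of reads in shared stretches as the excess of the summed strand columns over the column for both strands.

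The 9 genes and the further lists (10 exon junction proteins, 30 decay factors, 3 NMD substrates, 2 genes with long introns) were chosen with earlier results of these data known. From those lists the text names genes at an unadjusted p-value under 0.05 (at most 4 a list) and, whatever their p-value, eIF4AIII, Gadd45 and rl. As list members it also names piwi, Pym, eRF1, eRF3, pont, rept, tst and Rrp4. Pattern likeness was fixed for Upf1 and tsu (nearest 3 genes) and, for each of the 9, the nearest other.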

Additional observations from a re-analysis of the deposited data

How the results depend on the processing

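Under all 10 alternatives, 0 of the 9 NMD and exon junction genes were called; their lowest adjusted p-value was 0.136, for Smg5 in DESeq2. Smg5 and Upf1 kept a value below 0 and Upf2, Smg6 and tsu one above 0 in each of the 10. The sign turned for Upf3 without replicate 1 (-0.10), btz without replicate 1 (0.79), Smg1 without replicate 2 (-0.23) and mago without replicate 1 (0.022) and without replicate 3 (0.012). The cause was not tested. With a pair left out, values ranged from -1.07 to -0.39 for Upf1, 0.07 to 0.39 for Upf2, -0.10 to 1.05 for Upf3, -1.47 to 0.79 for btz, -0.13 to 0.022 for mago and -0.23 to 0.66 for Smg1. Over all tested genes, 0 were called in the edgeR fit with the replicate block and 8 without it; 11 were called with the filter of at least 1 count, 4 with that of at least 50 counts, 4 by limma-voom, 380 by DESeq2, and 0 to 4 with a pair left out (4 without replicate 1 and 3 without replicate 3). DESeq2 called Prp3 (-1.17), all 3 NMD substrates and 1 of the 2 genes with long introns (rl). It called 4.54% of the 8370 genes with an adjusted p-value, and both lists were chosen with earlier results of these data known. Of the substrates, 1 (Arc1) was called with the filter of at least 1 count and 1 (Arc1) without replicate 3, and 0 to 1 with a pair left out. RLE scaling moved the median of all genes by -0.01 on the log2 scale. For each of the 9 genes, counting error in the lowest library was below the spread between libraries of either group. That error was taken as if reads were independent molecules, so it is a lower bound.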
